A study of Mus musculus with 6 samples.

Results

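The primary cilium is an antenna of microtubules that stands on nearly every cell of the kidney tubule, and most inherited cystic kidney diseases come from genes that build it, load it or signal from it. Trains of intraflagellar transport (IFT) proteins carry cargo up the cilium with kinesin and back with dynein. The BBSome, a coat of Bardet-Biedl syndrome proteins, moves membrane receptors out of it, and the transition zone at its base sets what may enter. The polycystins and fibrocystin sit in its membrane, and their loss gives polycystic kidney disease.

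Messenger RNA of these genes was examined at E18.5 in whole embryonic mouse kidneys, read on Illumina MouseWG-6 v2.0 arrays. The genes were chosen by symbol: every Ift, Bbs or Nphp gene with a number, and 24 further genes of cilia and cystic kidneys. Of the 19054 genes with an annotated probe, 43 met this rule, through 98 probes. In 35 of them at least 1 probe was detected (detection p under 0.01) on at least 3 of the 6 arrays, and the brightest such probe stood for the gene. Each of 3 litters gave 1 mutant pool, FoxD1GC;Dicerfl/fl, and 1 control pool of Cre-negative littermates, and a pool held the kidneys of 2 embryos. The mutant carries an eGFP-Cre fusion made from the FoxD1 locus and a floxed Dicer allele, so that Dicer, which makes mature miRNAs, is lost from the renal stroma and its descendants. The tubule epithelium that carries most of the cilia is not among the descendants that the study lists for the FoxD1 lineage. The study also cites expression of FoxD1GC in podocytes and a rare early switch of stroma to nephron progenitors. Its own fate mapping in mutant kidneys saw no evidence for such a switch. The controls are given only as Cre-negative, and mutant pools differ from them in the Cre allele at FoxD1 too. In whole kidneys, fewer cells of a type and less RNA per cell cannot be told apart.

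Median intensities of the 6 arrays lay between 100.3 and 107.6, and each array detected 35.7% to 37.7% of its probes. The brightest Dicer1 probe changed by -0.28 ± 0.11 (SE, adjusted p = 0.24 by limma) and a dimmer one by -0.63 ± 0.13 (adjusted p = 0.045). Where either lies relative to the floxed exon is not known here, so neither checks the deletion. The labelled tissue was checked against marker genes. Every one of the 9 proximal tubule and 6 nephron progenitor markers with a probe was detected on at least 1 array, and all 6 adrenal cortex markers were undetected on every array. The Y-linked transcript Eif2s3y read 8.43 in the control pool and 4.28 in the mutant pool of litter 2, so those pools differed in sex. The pools of litter 1 both read above 8 and those of litter 3 both read below 5.

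None of the cilium and cystic kidney genes passed the test for genotype. Of the 35 tested, 0 had an adjusted p under 0.05 (lowest 0.067, limma), against 5.56% of the 9921 genes tested on the array, 2.41% higher and 3.15% lower. At an unadjusted p under 0.05, 7 of the 35 (20%) stood out, against 20.2% of all genes. Of these, 2 had a positive change (9.99% of all genes) and 5 a negative one (10.2%). Counting every change, 19 of the 35 were positive and 16 negative, against 52.1% and 47.9% of all genes. The changes ran from -0.54 for Bbs7 to 0.27 for Ift43 on the log2 scale, mutant minus control, and 28 of the 35 were smaller than 0.2 in size. Their median was 0.01, as over all genes tested (0.01), and their median size was 0.12 against 0.14. In litters 1, 2 and 3 the median change of the 35 was -0.02, 0.06 and -0.06.

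The errors bound what could be missed on the scale used, in whole kidneys. The standard error of a tested cilium gene was 0.10 to 0.18, with a median of 0.11. The 95% interval of the change lay within 1.5-fold in both directions for 33 of the 35 genes, Bbs7 and Ift27 being the exceptions, against 77.2% of all genes, and within 2-fold for all 35 (95.5% of all genes). These intervals are of the brightest probe of each gene and do not bound its dimmer probes. Some dimmer probes changed more than the brightest of their gene, at -0.55 ± 0.12 in Bicc1, -0.44 ± 0.12 in Invs and 0.36 ± 0.12 in Ift74 (SE), and others less. The Invs one was detected on 3 control arrays and 1 mutant array. It thus met the detection filter through the controls, where it read higher, and its change is to be read with that limit. The smallest change called on the array in this fit was 1.40-fold.

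**Figure D1:**
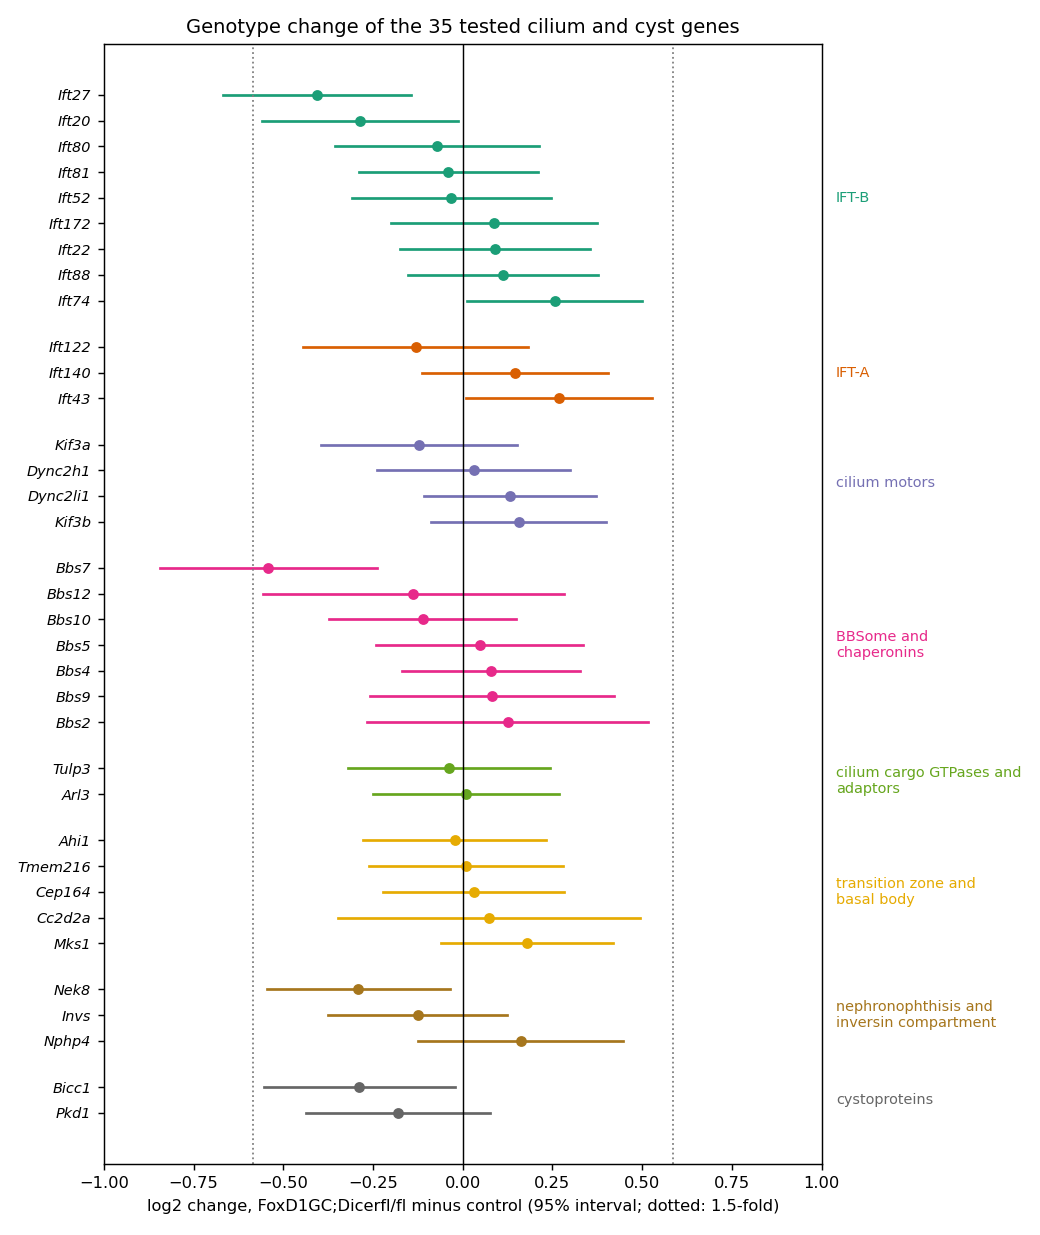
Log2 change of each of the 35 tested genes (x axis, FoxD1GC;Dicerfl/fl minus control, points) with its 95% interval (lines), grouped by role, and dotted lines at 1.5-fold. The points run from -0.54 for Bbs7 to 0.27 for Ift43, and only the intervals of Bbs7 and Ift27 cross a dotted line.

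The sequences in front of these genes, which their choice did not use, were searched for a motif. RFX factors switch on ciliary genes through the X-box, and its core, GTTGCC, which reads GGCAAC on the other strand, was searched on both strands of the RefSeq promoters of assembly GRCm38.p6, which run from 250 bases before to 50 after the start of a gene. Of the 35 tested genes 30 had a promoter there, and the core stood in 12 of them (40%), against 14.1% of 27025 genes. No test of this difference was run, and the promoters of the other 18 genes hold no such run of letters. The sets are unlike: the 27025 are all genes with such a promoter, whether or not detected in these kidneys. A gene may have several promoters, 34 over the 30 genes and 32851 over the 27025. The 12 were Ahi1, Bbs5, Bbs7, Cep164, Dync2h1, Ift140, Ift172, Ift27, Ift88, Kif3a, Mks1 and Nphp4. A match is a run of letters and no measured binding site. Stretches around the core are shown for 6 of the 12, so that it can be seen with its flanking letters, which were not searched for the rest of an X-box. The core is in capitals, read on the strand that spells it.
Mks1 (chr11:87853181-87853206, + strand): cagcgtctccGTTGCCaggggaacga
Ahi1 (chr10:20952566-20952591, - strand): ctctgccgctGTTGCCtaggtaactc
Bbs7 (chr3:36613495-36613520, - strand): atgcgccccgGTTGCCttggaaaccg
Ift88 (chr14:57424082-57424107, - strand): acgcccagccGTTGCCaggcgcgact
Kif3a (chr11:53567261-53567286, + strand): ccccgcaggcGTTGCCccagtctagc
Nphp4 (chr4:152478133-152478158, + strand): gtgcatcccgGTTGCCagctgatgtt

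The whole promoters of Bbs7 and Ift27 are given because these genes had the lowest adjusted p of the 35. Capitals again mark the X-box core.
Bbs7 promoter (chr3:36613340-36613639, - strand): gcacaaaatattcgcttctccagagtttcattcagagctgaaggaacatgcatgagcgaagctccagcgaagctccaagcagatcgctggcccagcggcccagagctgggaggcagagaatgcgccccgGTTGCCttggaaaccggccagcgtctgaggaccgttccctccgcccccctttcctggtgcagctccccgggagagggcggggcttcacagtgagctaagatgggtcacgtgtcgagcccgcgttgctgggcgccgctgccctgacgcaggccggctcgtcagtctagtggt
Ift27 promoter (chr15:78174032-78174331, - strand): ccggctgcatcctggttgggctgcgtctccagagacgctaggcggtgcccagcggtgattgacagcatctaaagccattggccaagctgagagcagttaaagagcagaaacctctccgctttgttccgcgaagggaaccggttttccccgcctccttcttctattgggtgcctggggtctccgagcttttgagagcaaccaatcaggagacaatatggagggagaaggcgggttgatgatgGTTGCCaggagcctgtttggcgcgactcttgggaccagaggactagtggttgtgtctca
Both genes had mutant pools that read below their control pools. Among the other genes that hold the core, Ahi1 and Kif3a had negative changes. Bbs5, Cep164, Dync2h1, Ift140, Ift172, Ift88, Mks1 and Nphp4 had positive ones. No gene with the core passed the test, Bbs7 and Ift27 included.

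The BBSome subunit gene Bbs7 had the largest change of the 35. Its protein forms the core of the BBSome together with Bbs2 and Bbs9. In litters 1, 2 and 3 it read 7.55, 7.80 and 7.80 log2 units in control kidneys. The mutant pools read 7.19, 7.36 and 6.98, all below every control pool. The change was -0.54 ± 0.13 (SE, 1.46-fold lower, 95% interval -0.84 to -0.24) and missed the threshold (adjusted p = 0.067, limma). Over 12 alternative settings its adjusted p was 0.025 to 0.27, and it was called in 3 of them, with no background correction, with a larger offset and with an intensity trend in the variance. Without litter 2, whose pools differed in sex, the change was -0.59 (adjusted p = 0.27).

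Whether Bbs7 differs from the other BBSome genes was not tested. Bbs2, which pairs with Bbs7 in the complex, read 7.01, 6.72 and 6.57 in control and 6.67, 7.15 and 6.86 in mutant kidneys, so that the groups overlapped (0.12 ± 0.16, adjusted p = 0.73). Bbs9 changed by 0.08 ± 0.14, Bbs4 by 0.08 ± 0.10 and Bbs5 by 0.05 ± 0.12. Bbs10 and Bbs12, chaperonin-like proteins that help the complex to assemble, changed by -0.11 ± 0.11 and -0.14 ± 0.18. Of the 7 tested genes of this group, 4 had a positive and 3 a negative change, and the groups of pools did not overlap in 1, Bbs7, against 25.8% of all genes. Bbs1, the subunit that binds the GTPase Arl6, was detected on 1 control array and was not tested.

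Among the 9 tested genes of IFT complex B, the train that carries cargo towards the tip, 4 had a positive and 5 a negative change, with a median of -0.03. Ift27, a small GTPase that links the train to the BBSome, read 8.98, 8.80 and 8.58 in control and 8.47, 8.33 and 8.34 in mutant kidneys. Its mutant pools thus lay below all control pools, and its change was -0.41 ± 0.11 (95% interval -0.67 to -0.14, adjusted p = 0.10, limma). Over 12 alternative settings its adjusted p was 0.029 to 0.42, and it was called in 4, with the authors' processed values among them (adjusted p = 0.041). A dimmer Ift27 probe did not follow, at 0.01 ± 0.11 (adjusted p = 0.97), although both are annotated to the same RefSeq transcript.

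Ift20, which also sits at the Golgi and sorts cargo for the cilium, read 10.86, 10.65 and 10.88 in control and 10.45, 10.57 and 10.52 in mutant kidneys. These groups did not overlap either, and its change was -0.29 ± 0.11 (adjusted p = 0.24). Its 2 dimmer probes gave -0.29 ± 0.12 and -0.23 ± 0.11, so 3 probes pointed the same way without passing the test. Ift74, whose protein binds tubulin together with Ift81, went the other way, at 7.03, 7.0 and 6.90 in control and 7.27, 7.33 and 7.09 in mutant kidneys (0.26 ± 0.10, adjusted p = 0.24). Its partner Ift81 changed by -0.04 ± 0.10.

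Ift88, the gene disrupted in the Oak Ridge polycystic kidney mouse, read 6.58, 6.52 and 6.6 in control and 6.76, 6.74 and 6.53 in mutant kidneys. The groups overlapped, and the change was 0.11 ± 0.11 (95% interval -0.15 to 0.38, adjusted p = 0.64). Its dimmer probe gave -0.21 ± 0.15, and the mean of both -0.05 ± 0.10, so the sign of its change depends on the probe. The remaining members of the train, Ift22, Ift52, Ift80 and Ift172, changed by -0.07 to 0.09. Ift46 and Ift57 were not detected on any array.

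IFT complex A returns cargo from the tip. Ift43, 1 of its subunits, read 9.71, 9.35 and 9.5 in control and 9.84, 9.75 and 9.78 in mutant kidneys. Every mutant pool read above every control pool, and the change was 0.27 ± 0.11 (95% interval 0.01 to 0.53, adjusted p = 0.24). Ift140 changed by 0.15 ± 0.11 and Ift122 by -0.13 ± 0.13, with overlapping groups. The motors of both trains had 3 positive and 1 negative change among the 4 tested, with a median of 0.08. Kif3a, the kinesin-2 subunit whose loss from tubules gives cysts in mice, read 8.56, 8.49 and 8.18 in control and 8.33, 8.58 and 7.95 in mutant kidneys (-0.12 ± 0.12, adjusted p = 0.62). The pools of litter 3 were the lowest of each genotype. Its partner Kif3b changed by 0.16 ± 0.10, the dynein-2 heavy chain Dync2h1 by 0.03 ± 0.11 and the light intermediate chain Dync2li1 by 0.13 ± 0.10. Kif7, a kinesin-like regulator of Hedgehog signalling at the ciliary tip, was not detected on any array.

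**Figure D2:**
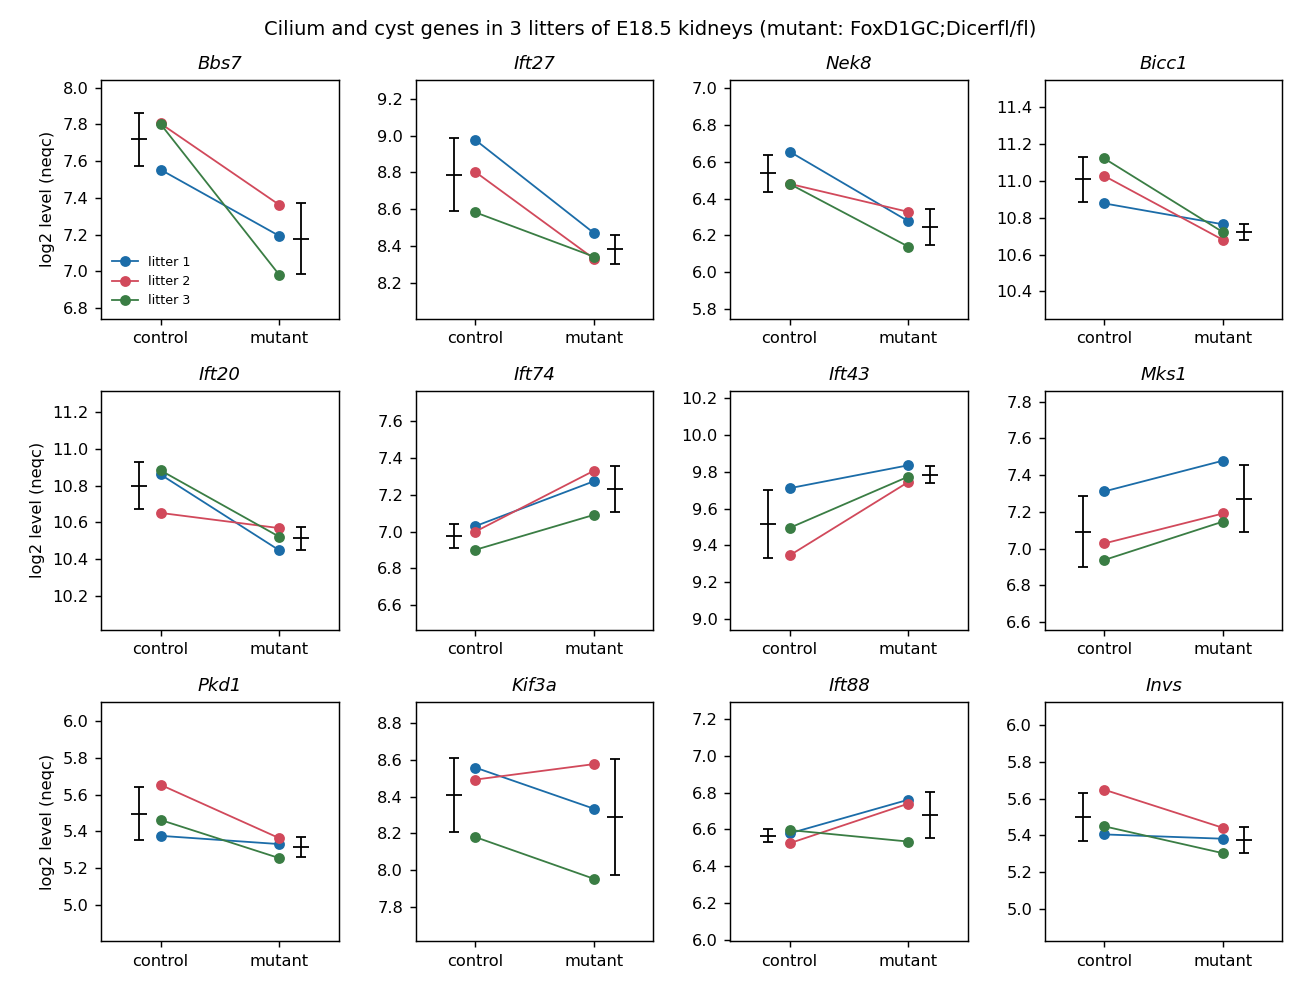
Log2 level (y axis, each panel spanning the same 1.3 units) of 12 genes in control and FoxD1GC;Dicerfl/fl pools, with a line joining the pools of a litter and bars for the mean and SD of 3 pools. The lines of Bbs7, Ift27, Nek8, Bicc1, Ift20, Pkd1 and Invs all slope down, those of Ift74, Ift43 and Mks1 all slope up, and those of Kif3a and Ift88 go both ways.

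Several of these genes are named for the cysts that their loss gives. Bicc1, an RNA-binding protein mutated in the jcpk and bpk cystic mice, had 10.88, 11.03 and 11.12 log2 units in control and 10.76, 10.68 and 10.72 in mutant kidneys. The pools did not overlap, and the change was -0.29 ± 0.11 (95% interval -0.55 to -0.02, adjusted p = 0.22, limma). Of its 3 dimmer probes, 1 came close to the threshold (8.45, 8.68 and 8.93 in control, 8.12, 8.08 and 8.21 in mutant kidneys, -0.55 ± 0.12, adjusted p = 0.052). The others gave -0.34 ± 0.13 and -0.03 ± 0.12, so all 4 changes were negative and 0 passed. The probe at -0.55 and the one at -0.03 are annotated to cDNA clones and the other pair to the RefSeq transcript. Without litter 2 the change of the brightest probe was -0.26 (adjusted p = 0.57).

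Pkd1, the polycystin gene most often mutated in human polycystic kidney disease, read 5.38, 5.65 and 5.46 in control and 5.33, 5.36 and 5.25 in mutant kidneys. Its mutant pools lay just below its control pools, and the change was -0.18 ± 0.11 (95% interval -0.44 to 0.08, adjusted p = 0.41). Its probe was dim, though detected on all 6 arrays, and the size of the change moved with the processing. It was -0.043 with the authors' processed values and -0.062 with no background correction. Pkhd1, the fibrocystin gene of recessive polycystic kidney disease, was not measured: of its 3 probes the best was detected on 1 control array. Pkd2 had no annotated probe in the tables used here.

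miRNAs bear on these genes in other settings. In mouse models the miR-17 family represses Pkd1 and Pkd2, Bicc1 opposes that family on Pkd2, and the miR-200 family represses Pkd1. Mature sequences of 2 members of each family are shown because their production needs Dicer, which was deleted here in the FoxD1 lineage only. The study lists miR-17 and miR-20a in its profile of that lineage and saw less miR-17 in the medullary interstitium of mutants. Capitals mark the seed, bases 2 to 8, which is shared within each pair shown, and the sequences are those of RefSeq with GRCm38.p6.
mmu-miR-17-5p: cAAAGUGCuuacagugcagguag
mmu-miR-20a-5p: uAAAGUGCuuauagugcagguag
mmu-miR-200b-3p: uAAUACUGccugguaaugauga
mmu-miR-200c-3p: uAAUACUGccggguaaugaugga
These arrays read messenger RNA and no mature miRNA, so the part of these miRNAs in the values of Pkd1 and Bicc1 was not tested.

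Nephronophthisis proteins fill the inversin compartment at the base of the cilium. Nek8, the kinase mutated in the jck cystic mouse, read 6.66, 6.48 and 6.48 in control and 6.28, 6.33 and 6.14 in mutant kidneys. All mutant pools were below all control pools, with a change of -0.29 ± 0.11 (95% interval -0.55 to -0.04, adjusted p = 0.20). Invs, the inversin gene that anchors Nek8 there, read 5.4, 5.65 and 5.45 in control and 5.38, 5.44 and 5.30 in mutant kidneys (-0.13 ± 0.10, adjusted p = 0.57). A dimmer Invs probe, detected on 3 control arrays and 1 mutant array, gave -0.44 ± 0.12 (adjusted p = 0.092). Both are annotated to cDNA clones, and the 2 Invs probes annotated to the RefSeq transcript were detected on 0 arrays, so the RefSeq transcript of Invs has no value here. Nphp4, a transition zone protein, changed by 0.16 ± 0.12.

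In all 5 tested transition zone and basal body genes the range over the control pools was larger than the genotype change, as in 72.9% of all genes. Mks1, a Meckel syndrome protein of the transition zone, read 7.31, 7.03 and 6.94 in control and 7.48, 7.19 and 7.15 in mutant kidneys. It was higher in the mutant pool of each litter, but the groups overlapped (0.18 ± 0.10, adjusted p = 0.38). Cc2d2a, a second protein of that complex, read 8.78, 8.69 and 7.98 in control and 8.53, 8.55 and 8.59 in mutant kidneys. The control pool of litter 3 stood apart, and the change was 0.07 ± 0.18 (adjusted p = 0.87). Cep164, which docks the basal body to the membrane, changed by 0.03 ± 0.11, Ahi1 by -0.02 ± 0.11 and Tmem216 by 0.01 ± 0.11. Arl3 and Tulp3, which deliver lipid-anchored and membrane proteins to the cilium, changed by 0.01 ± 0.11 and -0.04 ± 0.12. Ofd1, Tmem67 and Rpgrip1l were not tested. Ofd1 and Tmem67 were detected on 0 arrays and Rpgrip1l on 1 mutant array.

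Pool by pool, 9 of the 35 genes had mutant and control pools that did not overlap, against 25.8% of all genes. In 3 the mutant pools were the higher ones (13.8% of all genes) and in 6 the lower ones (12.1%). The former were Dync2li1, Ift43 and Ift74, and the latter Bbs7, Bicc1, Ift20, Ift27, Nek8 and Pkd1. In 13 of the 35 (37.1%) all 3 litters moved in 1 direction, against 44.1% of all genes (23.2% up and 21% down). Both shares were near those of the array as a whole. The range over the 3 control pools was larger than the genotype change in 28 of the 35 (80%), against 72.9% of all genes. It was widest for Cc2d2a (0.80), Bbs12 (0.67), Bbs9 (0.62) and Bbs5 (0.58). The control pool of litter 3 was the lowest of the 3 in 17 genes, and those of litters 1 and 2 in 9 each.

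**Figure D3:**
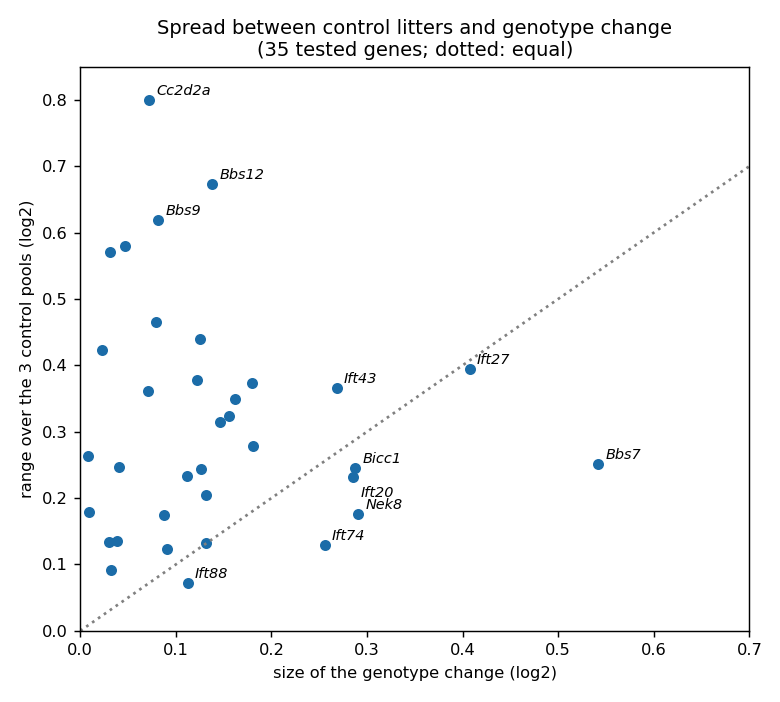
Range over the 3 control pools (y axis, log2) against the size of the genotype change (x axis, log2) for each of the 35 genes, with a dotted line where they are equal. Points above the line, 28 of 35 (72.9% of all genes), had a range over single control pools larger than the difference between group means. These are unlike measures. Cc2d2a lies highest at 0.80 and Bbs7 farthest to the right at 0.54.

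For 15 genes more than 1 probe was tested, which gives a second reading of the gene. All probes of a gene had changes of the same sign in 10 of the 15 and of both signs in 5, Arl3, Bbs10, Ift172, Ift27 and Ift88. The widest gap between probes of a gene was 0.52 log2 units, in Bicc1. Of the 56 probes tested 0 passed the threshold (lowest adjusted p = 0.052), against 4.87% of all probes.

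**Figure D4:**
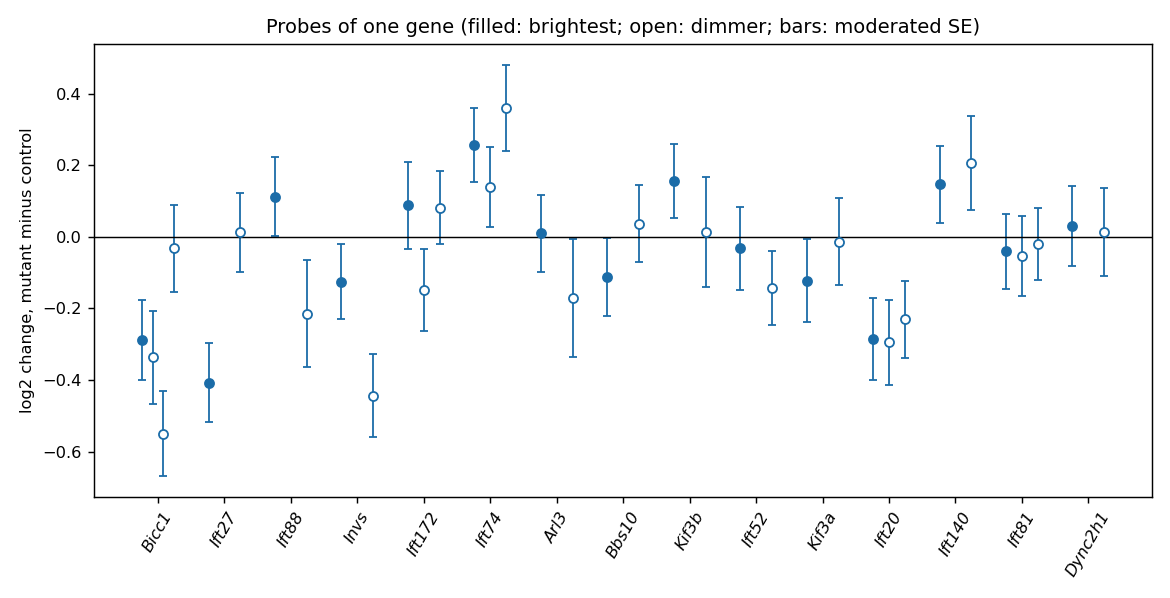
Log2 change (y axis, FoxD1GC;Dicerfl/fl minus control) of every tested probe of the 15 genes with more than 1, the brightest filled and dimmer ones open, with moderated standard errors as bars. Probes of Ift20 and Ift81 lie close together, while those of Ift27, at -0.41 and 0.01, lie apart.

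A list of 71 other cilium genes was read beside these. It holds further IFT, BBSome, transition zone and basal body genes, with ciliary signalling proteins. Of the 49 tested, 0 passed the threshold (5.56% of all genes) and 7 had an unadjusted p under 0.05 (20.2% of all genes). Of the 49, 27 had a positive and 22 a negative change (52.1% and 47.9% of all genes), and the median was 0.03. The lowest adjusted p was that of Anks6, the partner of Nek8 and Invs in the inversin compartment. Anks6 read 7.27, 7.03 and 7.04 in control and 6.64, 6.52 and 6.66 in mutant kidneys. The groups were well apart, and its change of -0.51 ± 0.11 stood at the threshold (adjusted p = 0.0502), with calls under 5 of the 12 alternatives. Tmem138 changed by -0.40 ± 0.10 (adjusted p = 0.089), Evc by -0.41 ± 0.11 (adjusted p = 0.10) and the Hedgehog transducer Smo by -0.32 ± 0.11 (adjusted p = 0.18). The Tmem138 probe was dim and detected on 4 arrays, at 5.45, 5.47 and 5.38 in control and 4.95, 5.14 and 4.99 in mutant kidneys. It may have met the detection filter mainly through the control pools.

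Factors that drive ciliary genes were measured in part. Of 12 with a probe 5 were tested and 0 called, against 5.56% of all genes. Rfx1 changed by 0.09 ± 0.10 and Rfx2 by -0.16 ± 0.13. Motile cilia, not a usual feature of mouse kidney tubules, were checked with 23 markers, of which 15, the regulator Foxj1 among them, were detected on 0 arrays. All 5 markers tested had a positive change, from 0.09 to 0.29 (52.1% of all genes were positive), and 0 passed (5.56% of all genes). Among 17 tested genes of cystic disease outside the genes chosen by symbol, which share Anks6 with the list above, 1 passed the threshold, against 5.56% of all genes. Muc1, a mucin of the distal tubule and collecting duct, was higher in mutant kidneys (7.23, 7.61 and 7.81 in control, 8.45, 8.69 and 8.50 in mutant, 0.99 ± 0.13, adjusted p = 0.010). Umod, the uromodulin gene, ranged from 9.0 to 10.4 in control and from 8.88 to 9.18 in mutant kidneys (-0.72 ± 0.20, adjusted p = 0.11).

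Cell type markers shifted in the same kidneys. Of all genes tested, 2.41% were called higher and 3.15% lower. Of 9 proximal tubule markers 7 fell and 0 rose (median -1.20), and their summed signal was 11716 to 17028 in control and 5994 to 8329 in mutant pools. Slc5a2, among the 7, was detected on 3 arrays and read 5.53, 5.95 and 6.37 in control and 4.37, 4.90 and 4.33 in mutant pools. It may have met the detection filter only through the control pools, so its fall carries little weight. Of 10 stroma and pericyte markers 5 fell (median -0.53, sums of 5779 to 6825 and 4759 to 4997). All 5 tested leukocyte markers rose (median 0.95, sums of 706 to 825 and 1829 to 1953), though Ptprc and Itgam were detected on 0 arrays. Of 6 nephron progenitor markers 2 rose (median 0.43). Collecting duct markers went both ways, with 1 rise and 2 falls among 9. Podocyte and endothelial markers had 0 calls among 3 and 6. These markers were picked with earlier results of these arrays known. The 35 cilium genes had a median of 0.01 beside them, and the part of the shifts in their values was not tested.

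**Figure D5:**
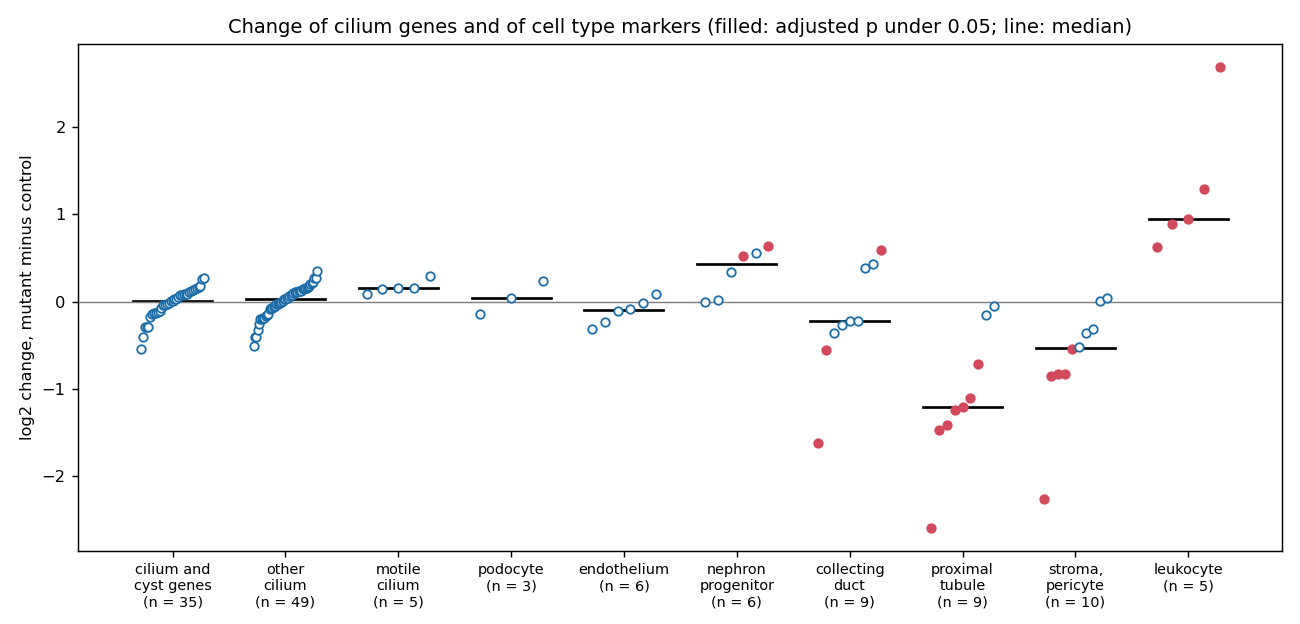
Log2 change (y axis, FoxD1GC;Dicerfl/fl minus control) of each tested gene in 10 lists, filled where the adjusted p was under 0.05, with the median as a line. The 35 cilium and cyst genes hold no filled point and a median of 0.01, while 7 of 9 proximal tubule markers are filled below 0 and 5 of 5 leukocyte markers are filled above 0. Slc5a2, among the 7, was detected on 3 arrays. Of all genes tested 5.56% were called.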

How the data were processed

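The deposited table, labelled non-normalized, gives a probe intensity and, per the file headers, a detection p-value for each array. The intensities were taken to be on a linear scale without background correction. The p-values were taken to be against the negative control beads of each array. A second deposited table holds log2 values that the authors had processed with lumi. Of 45281 rows, 8 damaged ones (name missing or repeated, cell missing, intensity under 80) were left out. The platform annotation gave 1 symbol to 34877 probes, several to 18 and none to 10378.

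Background correction and quantile normalization used neqc (limma 3.58.1, R 4.3.3), with an offset of 16 and detection p-values to set the background. The 16899 probes detected on at least 3 arrays, 9921 genes by their brightest probe, were fitted with lmFit and eBayes for genotype with litter as a block, as in the study's methods (2 residual and 4.76 prior degrees of freedom). Every adjusted p of a gene is from this fit, Benjamini-Hochberg adjusted over these probes, and a gene is called under 0.05. SE are moderated. The litter labels pair the pools, and deviations of same-litter pools from their group means correlated at 0.19, 0.18 and 0.14. The fit was tested on simulated data with changes larger than that of any tested cilium gene, so it does not show how well smaller changes are found.

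The genes and lists were chosen with earlier results of these data known. Genes described by pool are the 8 with the lowest adjusted p and the measured ones best known for cysts or lost cilia. Others are given for contrast and were picked after their values were seen, namely Bbs2, Cc2d2a, Anks6, Tmem138, Evc, Smo, Rfx1, Rfx2 and Umod. Dimmer probes are named where they differ from the brightest or come near the threshold. Alternatives covered normalization, background, offset, dim-probe filter, probe rule, litter block, variance trend and each litter left out. The number of arrays limits the precision. A further promoter motif that was searched is not reported here.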

Additional observations from a re-analysis of the deposited data

How the results depend on the processing

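Over 12 alternatives, 0 of the cilium and cystic kidney genes were called higher in any, and their median change stayed between -0.05 and 0.02. The number called lower was 1 with the authors' processed values (Ift27) and 2 with no background correction, an offset of 50 or an intensity trend in eBayes (Bbs7 and Ift27 each time). It was 0 with median scaling, all probes tested, probes detected on all arrays, the mean of a gene's probes, no replicate block, and each litter left out. Of the other cilium genes, 1 (Anks6) was called with no background correction, an offset of 50, probes detected on all arrays, no replicate block or the intensity trend. Of 144 changes of single genes, 136 kept their sign and side of the threshold, 7 passed it (Bbs7 and Ift27) and 1 changed sign, Ift88, at -0.051 with the mean of its probes. The fit with no replicate block changed the call of Anks6 and of 0 of the 35 cilium and cystic kidney genes. Several sizes moved by over 1.5 times with the authors' processed values, among them Nek8 (-0.11), Invs (-0.031), Pkd1 (-0.043) and Bbs7 (-0.31), and Ift27 was at -0.20 with the mean of its probes. Over the whole array, 552 genes were called, against 265 with all probes tested, 865 with the intensity trend and 44 to 537 with a litter left out, the lowest without litter 2. The cause of that fall was not tested, and with so few calls on the array the 0 among the cilium genes says little. Pkd1 and Invs had dim probes, and Ofd1, Kif7 and Tmem67 were detected on 0 arrays.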
